A study of Mus musculus with 8 samples.

Results

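Fc receptors bind the constant part of antibodies and couple antibody-coated targets to uptake and signalling in microglia, the resident macrophages of the brain. Fcgr1, Fcgr3 and Fcgr4 encode activating receptors for IgG. Fcer1g encodes the shared gamma chain, which carries the signalling motif of those receptors and recruits the kinase Syk. Fcgr2b encodes the inhibitory receptor for IgG, which signals through its own motif by recruiting phosphatases such as the product of Inpp5d.

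The signal described here is H3K27ac, the acetyl mark on lysine 27 of histone H3 that active enhancers and promoters carry, at the regions of these 5 genes. The members are the 48 regions whose gene name in the deposited table is Fcgr1 (10 regions), Fcgr2b (9), Fcgr3 (6), Fcgr4 (16) or Fcer1g (7), out of 129304 regions of 800 bp assigned to 18707 genes. The table assigns a region to the gene with the nearest promoter, so a gene name here is a matter of distance only. All 26 intergenic regions are therefore tied to their gene by position alone.

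Chromatin immunoprecipitation and sequencing (ChIP-seq) was done on brain nuclei of C57BL/6 mice aged 2 years that were perfused with PBS. The groups were WT and GrnKO, and the labels name no allele for the loss of Grn, the gene of progranulin. Nuclei were sorted as DAPI-positive singlets that carried the myeloid factor PU.1 but neither OLIG2 nor NEUN. Each library came from a pool of 2 mice, and each genotype had 2 H3K27ac libraries and 2 inputs (sheared chromatin without antibody).

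The PU.1 gate also admits other myeloid cells and B cells, so marker genes were read from H3K27ac summed over all regions of a gene. The 12 microglial markers summed to between 59812 and 64569 scaled tags in WT and between 51832 and 52206 in GrnKO, and 5 of the 12 fell (Tmem119, Cx3cr1, Csf1r, Sall1 and Siglech), beside 4.88% of all genes, with 0 of the 12 higher beside 9.54%. None of the 5 passed under the scaling the authors used. The 8 markers of border macrophages summed to between 2017 and 2240 in WT and between 2835 and 3150 in GrnKO, with F13a1, Ms4a7 and Siglec1 higher and the defining genes Mrc1, Cd163 and Lyve1 not past the threshold. Of those 8 markers 4 had log2 changes above 0 and 4 under 0, with a median of 0.067. The B cell markers summed to between 874 and 929 in WT and between 1403 and 1502 in GrnKO, through Ms4a1 and Cd22, while the other 2 of the 4 tested B cell markers lay under 0 without passing and Pax5, a defining gene, held at most 0.574 scaled tags in any library. Sums of the 4 T cell markers ran from 252 to 281 in WT and from 418 to 443 in GrnKO, those of the 5 endothelial markers from 1478 to 1685 and from 2073 to 2286, and those of the 7 oligodendrocyte markers from 2009 to 2139 and from 2618 to 2753. That oligodendrocyte rise was in Mbp alone, while the other 4 of the 5 tested markers lay under 0, with Mog past the threshold as lower and a median log2 change of -0.29 for the 5. Cd4 and Flt1 were the T cell and endothelial markers that passed, as higher. The sums of the 4 monocyte markers lay lower in GrnKO, between 638 and 675 in WT against 424 and 515 in GrnKO, as did those of the 8 neuronal markers, between 231 and 274 against 161 and 188, and of the 7 astrocyte markers, between 3432 and 3435 against 3262 and 3307. Neutrophil markers, of which S100a8 passed as higher and Mmp9 as lower, reached no more than 82.5 scaled tags in any library, NK cell markers no more than 183 and mast cell markers no more than 10.2. The part of these shifts in the Fc receptor results was not tested, and in bulk nuclei fewer cells of a type and less signal per cell cannot be told apart.

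The H3K27ac libraries held between 15491642.5 and 20030832 tags, and WT replicate 1 stood apart, with 49.4% of its tags inside the regions against 63.3% to 65.7% in the other 3. Values are scaled tags, the authors' tags per 10000000 with a further correction for library composition (TMM, the trimmed mean of M-values). The labels were checked at Grn itself, where the start site held 357 and 300.1 scaled tags in WT and 0 in either GrnKO library. In the inputs, 60.9% of the values at the Fc receptor regions were 0 and the highest was 51.5 scaled tags by the authors' scaling.

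The promoter of Fcgr1 is printed whole because it was the one start site of the family at which H3K27ac differed past the threshold. It runs from 250 bases before the start site to 50 after it, on the minus strand at chr3:96293920-96294219 in GRCm38.p6, and comes from RefSeq. Capitals mark letters that match a searched motif: TTCCTC, the complement of the PU.1 core GAGGAA, at position -55, and TTCCCAGAA, a match to the GAS form TTCNNNGAA known from interferon-gamma targets, at position -109. Positions are those of the first base of the match, counted back from -1 at the base before the start site.
Fcgr1: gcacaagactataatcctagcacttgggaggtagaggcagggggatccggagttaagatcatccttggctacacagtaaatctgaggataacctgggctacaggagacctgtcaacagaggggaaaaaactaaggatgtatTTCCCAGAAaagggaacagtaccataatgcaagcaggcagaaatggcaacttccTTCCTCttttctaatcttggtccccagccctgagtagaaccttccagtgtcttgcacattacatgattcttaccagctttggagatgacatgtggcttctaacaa

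For comparison, the 80 bases before and 20 bases after the start site are given for the other 4 genes, from the same RefSeq table. They lie at chr1:171059384-171059483 (Fcgr3, minus strand), chr1:171018846-171018945 (Fcgr4, plus strand), chr1:170976052-170976151 (Fcgr2b, minus strand) and chr1:171234330-171234429 (Fcer1g, minus strand). Capitals mark the PU.1 core and, in Fcgr4, also an interferon-type match (GAAA, any 2 bases and GAAA again).
Fcgr3: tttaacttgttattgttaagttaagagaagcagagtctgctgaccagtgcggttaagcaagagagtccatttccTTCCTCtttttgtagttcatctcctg
Fcgr4: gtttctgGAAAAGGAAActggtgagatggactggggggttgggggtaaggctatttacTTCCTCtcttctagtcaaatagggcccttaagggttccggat
Fcgr2b: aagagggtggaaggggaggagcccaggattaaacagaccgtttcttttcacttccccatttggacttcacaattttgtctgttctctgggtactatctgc
Fcer1g: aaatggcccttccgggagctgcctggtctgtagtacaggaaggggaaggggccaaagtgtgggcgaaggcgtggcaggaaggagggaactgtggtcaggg

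The 3 activating receptors share the PU.1 core letters within 60 bases of the start site, at -55 in Fcgr1, -22 in Fcgr4 and -6 in Fcgr3. Fcgr2b and Fcer1g hold none in the whole window of 300 bases. Both strands were searched, and 28.3% of all 32851 promoter windows of that length hold GAGGAA. The interferon-type form was in 3.44% of the windows and the GAS form in 8.30%. No member window held an AP-1 site (TGACTCA or TGAGTCA, in 5.20% of all windows) or the E-box TCACGTG of MITF and TFEB (in 3.77%). These are letter matches only.

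By level in WT, H3K27ac per region of equal width was highest at Fcgr1 (a mean of 294 scaled tags per region), followed by Fcgr4 (209.9), Fcgr3 (181), Fcer1g (152) and Fcgr2b (65.5). Overlapping regions share reads, which these means count more than once. The overlapping Fcgr4 regions 19.9 to 21.3 kb upstream had WT means of 515 to 658, while the start site of Fcgr4 had 66.3. In GrnKO the mean per region was 253 at Fcgr1, 183 at Fcgr4, 171 at Fcer1g, 154 at Fcgr3 and 80.8 at Fcgr2b. Fcgr3 and Fcer1g thus changed places in the order, while Fcgr1 kept the top and Fcgr2b the bottom place. The median Fc receptor region held 132 scaled tags over the 4 libraries, against 34.2 for the median of all 80728 regions that passed the filter on low values.

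Summed over its regions, no Fc receptor gene passed the threshold in either direction, set at an adjusted p of 0.05 in limma over 15380 genes. Over all those genes, 9.54% were higher and 4.88% lower in GrnKO. With an unadjusted p under 0.05 there were 3 of the 5 genes (Fcgr1, Fcgr2b and Fcgr4), against 26.7% of all genes, and edgeR and DESeq2 on the recovered tags also called 0 of 5. The sums of the 3 activating receptors lay lower in GrnKO and those of Fcgr2b and Fcer1g lay higher, each by less than the test could call. The lower sums depended on the scaling. By the authors' scaling the log2 changes were -0.031 for Fcgr1, -0.045 for Fcgr3 and -0.0085 for Fcgr4, 0.49 for Fcgr2b and 0.36 for Fcer1g, and the median of all genes moved from -0.0099 to 0.18. Among regions within 1000 bp of the start site the direction of 2 of the 5 turned, to a log2 change of 0.31 for Fcgr4 (limma adjusted p = 0.545) and of -0.062 for Fcer1g (limma adjusted p = 0.841).

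Fcgr1, the high-affinity receptor known as CD64, had sums of 2894 and 2992 scaled tags in WT and 2538 and 2513 in GrnKO. Both GrnKO libraries were below both WT libraries, by 14.2% in the mean (log2 change -0.22, SE 0.088, limma adjusted p = 0.115). By the authors' scaling the GrnKO sums of 2704 and 2689 lay between the WT sums of 2445 and 3107 (limma adjusted p = 0.968). The TMM factor behind the lower WT sum, that of WT replicate 1, was 0.845, against 1.04 to 1.07 in the other 3 libraries. Fcgr3, a low-affinity activating receptor, had 1090 and 1085 in WT and 878 and 974 in GrnKO (log2 change -0.23, SE 0.11, limma adjusted p = 0.205). Its groups did not overlap either, and the GrnKO libraries differed more from each other than the WT libraries did.

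Fcgr4, the activating receptor next to Fcgr3 on chromosome 1, had 3223 and 3494 in WT and 2965 and 2886 in GrnKO (log2 change -0.20, SE 0.088, limma adjusted p = 0.161). Fcgr2b had 564 and 614 in WT and 717 and 739 in GrnKO, which is 23.5% higher in the mean (log2 change 0.30, SE 0.13, limma adjusted p = 0.129). Fcer1g had 1053 and 1068 in WT and 1225 and 1169 in GrnKO (log2 change 0.17, SE 0.11, limma adjusted p = 0.338). After the TMM correction the 2 groups were apart in all 5 genes: 2 had both GrnKO sums above both WT sums, as had 27.4% of all genes, and 3 had both below, as had 26.6%. By the authors' scaling the same 2 had both above, as had 36.2% of all genes, and the groups of the 3 activating genes overlapped.

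Leaving out 1 WT library moved some of these genes past the threshold. Without WT replicate 1, Fcgr1 (adjusted p = 0.0233) and Fcgr4 (adjusted p = 0.0107) passed as lower in limma, and without WT replicate 2, Fcgr2b passed as higher (adjusted p = 0.0287). In such a fit 1 WT library stands alone, and the spread comes from the 2 GrnKO libraries on the assumption that WT varies alike. Over all alternatives but the inputs, their adjusted p-values reached 0.996 (Fcgr1), 1.00 (Fcgr4) and 0.931 (Fcgr2b).

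**Figure D1:**
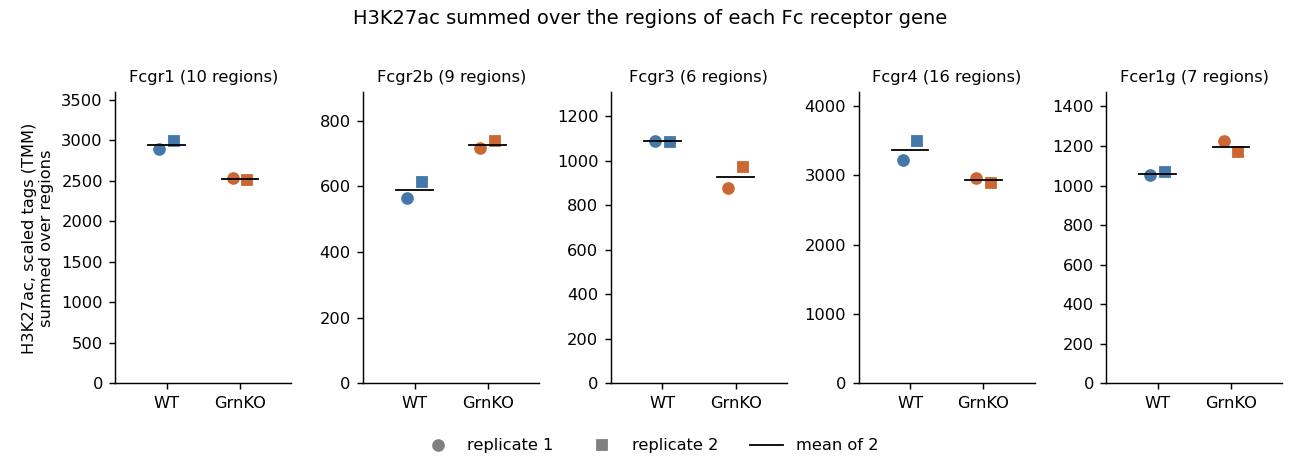
H3K27ac in scaled tags (y axis, from 0) summed over the regions of each gene, for the 2 WT libraries (blue) and the 2 GrnKO libraries (orange); black lines are means of 2. The GrnKO sums lie below the WT sums for Fcgr1, Fcgr3 and Fcgr4 and above them for Fcgr2b and Fcer1g; by the authors' scaling, not drawn, the groups of the first 3 overlap.

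Because Fcgr2b opposes the activating receptors, the sums of the activating genes were set against it within each library, which needs no scaling between libraries. The log2 ratio of Fcgr1, Fcgr3 and Fcgr4 together to Fcgr2b was 3.67 and 3.62 in WT and 3.15 and 3.11 in GrnKO. Groups were far apart relative to their spread (SD 0.036 in WT and 0.032 in GrnKO, n = 2 each). In tags, the activating genes held 12.5 times the H3K27ac of Fcgr2b in WT and 8.77 times in GrnKO. These multiples also reflect the number of regions summed (10, 6 and 16 against 9). Overlapping regions, among them a Fcgr2b region with an Fcgr4 region, count shared reads more than once. The difference was -0.52, with a two-sided exact permutation p of 0.333, the smallest that 2 libraries against 2 allow. Its size ran from -0.54 to -0.49 with 1 library left out.

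Region by region, 5 of the 47 tested Fc receptor regions rose in GrnKO and 2 fell. These are 10.6% and 4.26% of the members, beside 6.80% higher and 2.92% lower among all regions tested (limma adjusted p under 0.05 over 80728 regions). The regions that rose belong to Fcgr2b (2), Fcer1g (2, which overlap each other) and Fcgr1 (1), and all lie more than 2 kb from the start site. Those that fell are the start site of Fcgr1 and a distal region of Fcgr4. After subtraction of the sparse inputs 0 of the 7 passed (0 of all 80728 regions), and the direction of 3 of the 7 turned. The remaining region, in intron 5 of 12 of the neighbouring transcript NM_153064 near Fcer1g, held 4.69 scaled tags or fewer in every library and was not tested.

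Under the authors' scaling to library totals alone, the split was 5 higher and 0 lower, beside 6581 and 333 of all 80728 regions. That scaling moved the median log2 change of all regions from -0.0020 to 0.22 and that of the Fc receptor regions from -0.21 to 0.014. Without GrnKO replicate 1, or without GrnKO replicate 2, none of the 7 regions passed, and the calls over all regions fell from 5488 higher and 2354 lower to 1153 and 198 without the first and 1464 and 416 without the second. The 13 members with both GrnKO values above both WT values were 27.7% of those tested, against 27% of all regions. The 26 with both below were 55.3%, against 25.6% of all regions. By the authors' scaling 16 members had both above (34.0%, against 35.8% of all regions) and 7 had both below (14.9%, against 13.3%), shares close to those of all regions.

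**Figure D2:**
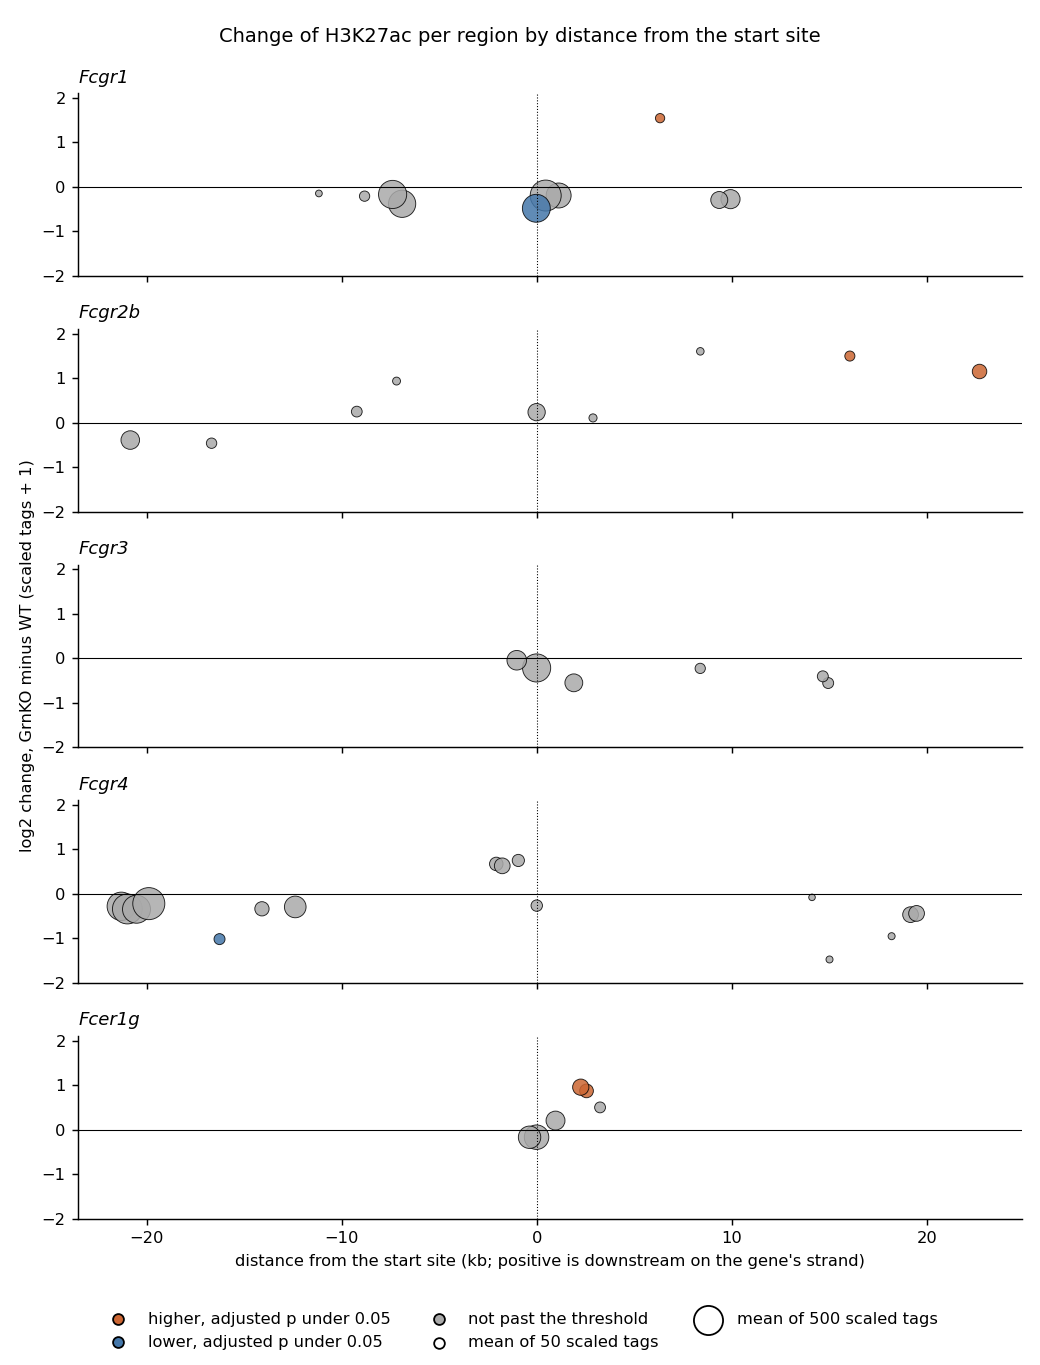
Log2 change of H3K27ac in GrnKO minus WT (y axis) of each tested region against its distance from the start site in kb (x axis), 1 panel per gene; the area of a point grows with the mean scaled tags and colour marks regions past an adjusted p of 0.05. The points past the threshold above 0 are small and lie 2.3 to 22.7 kb downstream of a start site.

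The signal at Fcgr2b rose downstream of the gene body. At the region 22.7 kb downstream of the start site (chr1:170952974-170953774, mm10, intergenic, past the end of the gene) the libraries held 57.9 and 77.8 scaled tags in WT and 152 and 148 in GrnKO. Values in GrnKO were alike and both above the WT values (log2 change 1.15, SE 0.23, limma adjusted p = 0.0031). At the region 16.0 kb downstream, annotated as the transcription end of NM_010187 (chr1:170959622-170960422), they held 18.8 and 24.4 in WT and 51.2 and 75.2 in GrnKO. That was a log2 change of 1.49 (SE 0.35, limma adjusted p = 0.0100), with no overlap. By the authors' scaling the inputs there held 0 and 32.08 in WT and 0 and 22.45 in GrnKO. On that scale H3K27ac was 15.5 and 25.2 in WT and 55.4 and 81.4 in GrnKO. So 1 WT input lay above both WT H3K27ac values.

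The start site of Fcgr2b, by contrast, held 153 and 147 scaled tags in WT and 175 and 179 in GrnKO (log2 change 0.23, SE 0.18, limma adjusted p = 0.463). Relative to that start site in the same library, the region at 22.7 kb held 37.8% and 52.8% in WT and 86.9% and 82.6% in GrnKO. At 16.0 kb the region held 12.2% and 16.5% in WT and 29.3% and 42.0% in GrnKO. Both ratios were higher in each GrnKO library than in either WT library (exact permutation p = 0.333 each, the smallest that 2 libraries against 2 allow). The 2 regions were chosen because they had passed as higher, so their ratios are not separate support. Without GrnKO replicate 1 the adjusted p-values were 0.0977 and 0.0824, and without GrnKO replicate 2 they were 0.0702 and 0.308, in limma.

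Of the other Fcgr2b regions, the 2 farthest upstream, at 16.7 and 20.8 kb, lay lower in GrnKO, with log2 changes of -0.46 and -0.39 (limma adjusted p = 0.374 and 0.186). They neighbour the strong upstream regions assigned to Fcgr4. The Fcgr2b region at 20.8 kb overlaps the Fcgr4 region 21.3 kb upstream of its own start site and shares reads with it. The intronic region 8.38 kb downstream had a log2 change of 1.60 at only 2.74 and 13.1 scaled tags in WT and 29.7 and 14.8 in GrnKO, and did not pass (limma adjusted p = 0.146). Its WT value in 1 library is close to the floor of 3 tags.

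At Fcer1g, the gamma chain gene, the rise was in intron 1 and not at the start site. The region 2.25 kb downstream (chr1:171231696-171232496) held 70.0 and 129 scaled tags in WT and 186 and 183 in GrnKO. Both GrnKO values were above both WT values, and WT replicate 1 was well below WT replicate 2 (log2 change 0.95, SE 0.24, limma adjusted p = 0.0164). The overlapping region 2.55 kb downstream (chr1:171231400-171232200) held 52.0 and 84.6 in WT and 125 and 119 in GrnKO (log2 change 0.87, SE 0.25, limma adjusted p = 0.0353). These 2 regions share reads and are not separate observations.

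The start site of Fcer1g held 406 and 334 scaled tags in WT and 331.5 and 323 in GrnKO, a log2 change of -0.17 (SE 0.14, limma adjusted p = 0.514). The intronic region at 2.25 kb thus went from 17.3% and 38.5% of the start site in WT to 56.1% and 56.8% in GrnKO. Summed over the regions more than 1000 bp from the start site alone, Fcer1g was the one gene of the 5 to pass (log2 change 0.84, limma adjusted p = 0.0089), beside 11.7% of all 11368 genes higher and 6.05% lower in that fit. The sum counts reads shared by the overlapping regions more than once. By contrast, the regions of Fcer1g within 1000 bp gave -0.062 (limma adjusted p = 0.841). The difference between the near and far regions was not itself tested.

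The calls in Fcer1g rested on more than the GrnKO libraries. Without WT replicate 1 the log2 changes were 0.52 and 0.52, with limma adjusted p-values of 0.0517 at 2.25 kb and 0.108 at 2.55 kb. Over 11 alternative fits, which leave out subtraction of the inputs, the adjusted p ran up to 0.174 at 2.25 kb and up to 0.329 at 2.55 kb, both without GrnKO replicate 1 (without GrnKO replicate 2 they were 0.135 and 0.226). Subtraction of the inputs gave log2 changes of -0.025 at 2.25 kb and 1.30 at 2.55 kb (limma adjusted p = 0.998 and 0.813). At 2.55 kb the call was also lost in DESeq2 (adjusted p = 0.0832) and without the filter on low values (adjusted p = 0.0637).

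Fcgr1 changed in both directions. At its start site (chr3:96293593-96294393), where the printed promoter lies, the libraries held 503 and 565 scaled tags in WT and 373 and 391 in GrnKO. Both GrnKO values were below both WT values (log2 change -0.48, SE 0.13, limma adjusted p = 0.0199). In intron 3 of 5, 6.32 kb downstream (chr3:96287250-96288050), they held 16.4 and 16.0 in WT and 41.0 and 58.8 in GrnKO (log2 change 1.54, SE 0.38, limma adjusted p = 0.0142). The gain there was from a low level: the region held 3.27% and 2.83% of the start site's tags in WT and 11.0% and 15.1% in GrnKO.

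The other 8 regions of Fcgr1 all lay below 0 and none passed; by the authors' scaling 5 of the 8 lay above 0. They include the intron 2 region 456 bp downstream, the strongest of the gene, with 629 and 585 scaled tags in WT and 531 and 529 in GrnKO (log2 change -0.19, limma adjusted p = 0.318). The intergenic region 6.91 kb upstream had 495 and 488 in WT and 385 and 371 in GrnKO (log2 change -0.38, limma adjusted p = 0.0614). It passed as lower with a replicate block (limma adjusted p = 0.0226) and not by the authors' scaling (log2 change -0.15, limma adjusted p = 0.816). As a share of the other regions of the gene, the start site held 20.5% and 23.2% in WT and 17.5% and 18.7% in GrnKO. Its region overlaps the intron 2 region 456 bp downstream, so some reads count on both sides of this share. Further regions of Fcgr1 also overlap and share reads. That fall at the start site did not pass under the authors' scaling (log2 change -0.25, adjusted p = 0.666, the highest over 11 alternative fits, of which the lowest gave 0.000816) or without the filter on low values (adjusted p = 0.0638). Subtraction of the inputs, not among those 11, turned it to a log2 change of 1.50 (limma adjusted p = 0.822). Without GrnKO replicate 1 and without GrnKO replicate 2, the limma adjusted p-values were 0.314 and 0.181 at the start site and 0.130 and 0.352 in intron 3.

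Fcgr4 carried the strongest H3K27ac of the family away from its promoter. The 4 overlapping intergenic regions between 19.9 and 21.3 kb upstream held 483 to 739 scaled tags in WT and 403 to 570 in GrnKO, while the start site held 81.0 and 51.6 in WT and 51.8 and 55.8 in GrnKO. In each of the 4, both GrnKO values were below both WT values (in 1 of the 4 by the authors' scaling), and log2 changes ran from -0.34 to -0.22 without passing (lowest limma adjusted p = 0.0798). The region that did fall lies 16.3 kb upstream (chr1:171002260-171003060, intergenic, annotated over an RLTR21 repeat). It held 70.0 and 76.2 in WT and 32.8 and 38.8 in GrnKO (log2 change -1.01, SE 0.29, limma adjusted p = 0.0319).

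That fall did not pass under the authors' scaling (adjusted p = 0.159) or in DESeq2 (adjusted p = 0.0626), and over 11 alternative fits the adjusted p ran from 0.0116 to 0.337, the highest without GrnKO replicate 1 (without GrnKO replicate 2 it was 0.158). Subtraction of the inputs, not among those 11, turned it to a log2 change of 0.44 (limma adjusted p = 0.941). Some values closer to the gene went the other way, though not at the start site (log2 change -0.26). The 3 regions 2.08, 1.77 and 0.947 kb upstream had log2 changes of 0.67, 0.63 and 0.75, with both GrnKO values above both WT values in each (limma adjusted p = 0.0693, 0.0642 and 0.109). With a replicate block the 3 passed as higher (limma adjusted p = 0.0410, 0.0217 and 0.0448), though the replicate numbers do not pair the samples. By the authors' scaling they did not (limma adjusted p = 0.0531, 0.0581 and 0.0560). The regions at 2.08 and 1.77 kb overlap and share reads, so their values are not separate measurements. At the region 1.77 kb upstream, for example, the libraries held 96.2 and 109 in WT and 184 and 138 in GrnKO.

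Fcgr3 had no region past the threshold, and all 6 had log2 changes under 0, from -0.56 to -0.044 (2 of the 6 lay above 0 by the authors' scaling). Its start site held 528 and 474 scaled tags in WT and 401 and 462 in GrnKO (log2 change -0.22, SE 0.13, limma adjusted p = 0.320). The region with the smallest p was in intron 3 of 4 of NM_001356511, 1.90 kb downstream, with 222 and 195 in WT and 132 and 151 in GrnKO (log2 change -0.55, SE 0.18, limma adjusted p = 0.0599). It passed as lower with a replicate block (limma adjusted p = 0.0237), though the replicate numbers do not pair the samples. It did not pass under the authors' scaling (log2 change -0.33, limma adjusted p = 0.548) or in DESeq2 (adjusted p = 0.0980). With 1 library left out its log2 change ran from -0.65 to -0.46. Fcgr2b, Fcgr3 and Fcgr4 are related genes in 1 cluster, and how reads that fit more than 1 copy were counted is not given in the sources used here.

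**Figure D3:**
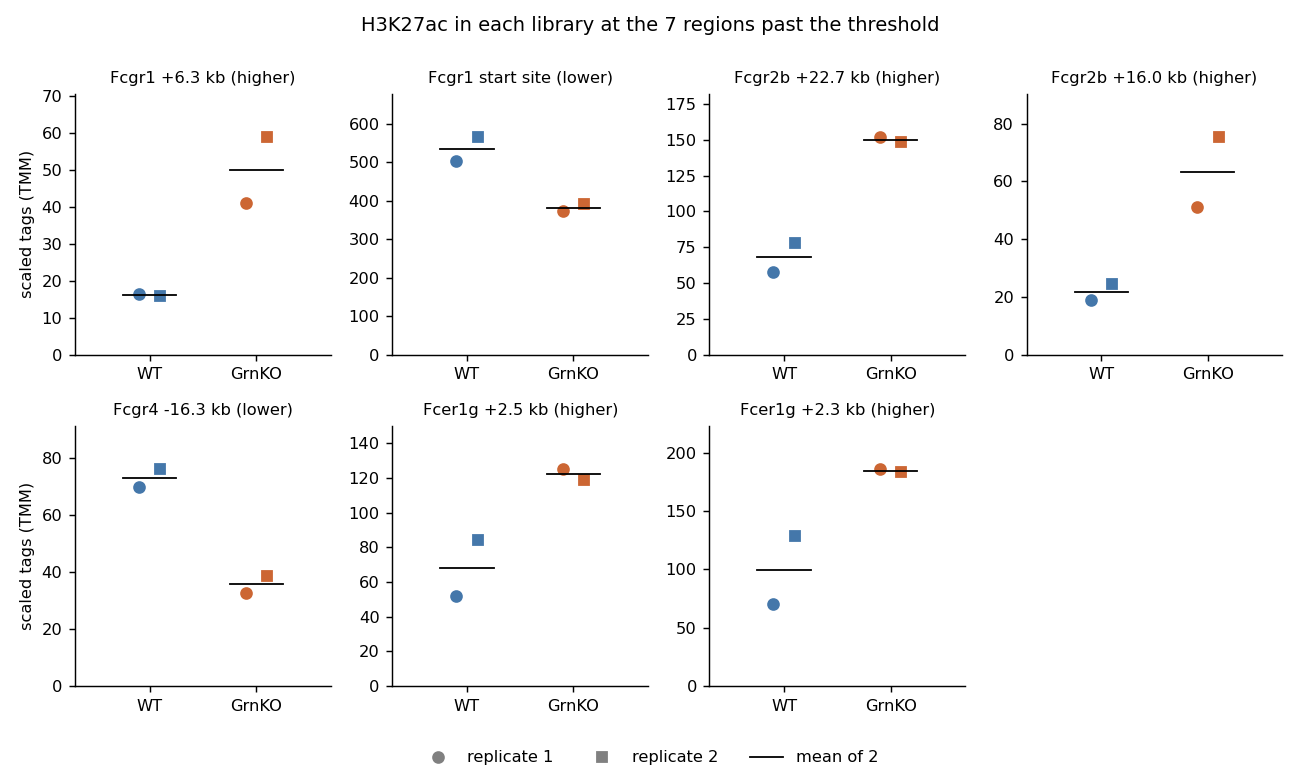
Scaled tags in each library (y axis, from 0) at the 7 regions past the threshold, with WT in blue, GrnKO in orange, circles for replicate 1, squares for replicate 2 and black lines for means of 2. In none of the 7 do the groups overlap as drawn (by the authors' scaling, not drawn, they overlap at the Fcgr1 start site), and WT replicate 1 is the lowest library at both Fcer1g regions.

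**Figure D4:**
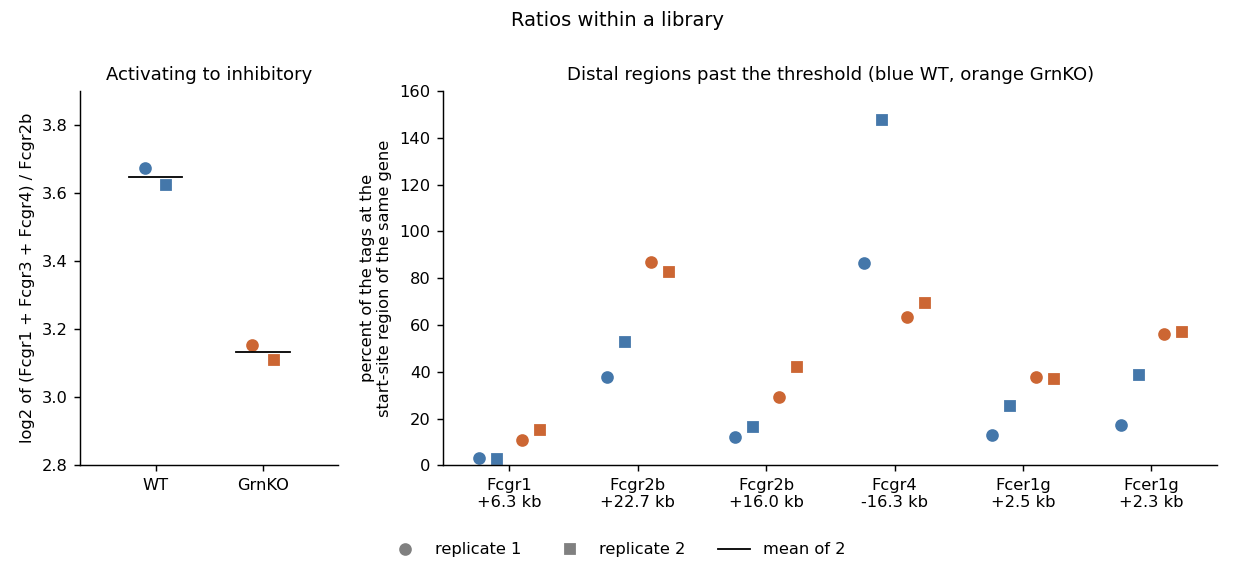
Ratios taken within each library, free of scaling between libraries: at left the log2 ratio of the activating receptor sums to Fcgr2b, at right the tags of each distal region past the threshold as a percent of those at the start site of the same gene (WT blue, GrnKO orange). GrnKO is lower than WT at left (3.15 and 3.11 against 3.67 and 3.62) and, at right, higher at every region but the one upstream of Fcgr4, whose own start site is weak.

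The genes that act with these receptors were read from a list of 73, of which 66 were tested on summed H3K27ac; 4 were higher and 6 lower in GrnKO. As shares these are 6.06% and 9.09%, beside 9.54% and 4.88% of all genes, and the median log2 change of the list was -0.065 against -0.0099 for all genes. The authors' scaling gave 3 higher (Fyn, Vav3 and Fcrl1) and 0 lower, beside 1629 and 166 of all 15380 genes. Without GrnKO replicate 1, Vav3 and Src alone passed, and without GrnKO replicate 2, Vav3 and Plcg1 alone. Leaving out either WT library raised both counts of the list, and the counts over all genes rose as well. In such a fit 1 WT library stands alone.

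Among 13 tested kinases and adaptors next to the receptors, 1 (7.69%) passed in each direction: Grb2, an adaptor of growth factor and immune receptors, rose, and Src, a kinase whose family phosphorylates the gamma chain, fell. Grb2 held 1224 and 1195 scaled tags in WT and 1648 and 1557 in GrnKO (log2 change 0.41, limma adjusted p = 0.0148). Src held 627 and 632 in WT and 445 and 383 in GrnKO (log2 change -0.61, limma adjusted p = 0.00747). Syk, the kinase that docks on the gamma chain, had 888 and 1010 in WT and 1243 and 1098 in GrnKO and did not pass (log2 change 0.30, limma adjusted p = 0.109). Tyrobp, an adaptor related to Fcer1g, had a log2 change of 0.17 (limma adjusted p = 0.313).

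Among 30 effectors of phagocytosis and calcium signalling, 2 rose and 4 fell, which is 6.67% and 13.3%, beside 9.54% and 4.88% of all genes. Vav3, a guanine nucleotide exchange factor, rose from 144 and 120 scaled tags in WT to 309 and 271 in GrnKO (log2 change 1.13, limma adjusted p = 0.000861). Cyba, a membrane subunit of the phagocyte oxidase, rose from 1792 and 1901 to 2435 and 2518 (log2 change 0.42, limma adjusted p = 0.00624). Both had GrnKO libraries clear of the WT libraries.

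Those that fell were Plcg1, a phospholipase C (log2 change -0.49), Wasf2, an actin regulator (-0.30), Elmo1, an engulfment protein (-0.26), and Prkca, a protein kinase C (-0.37). Plcg1 went from 1624 and 1747 scaled tags in WT to 1056 and 1360 in GrnKO (limma adjusted p = 0.0133). Prkca falls outside the rule for named genes and was named after its values were seen. Src and Prkca lay slightly above 0 among regions within 1000 bp of the start site, at 0.065 and 0.12.

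None of the 15 tested inhibitors (0 of 15) passed in limma, edgeR or DESeq2, 1 had an unadjusted limma p under 0.05 as higher and 2 as lower, and their median log2 change was -0.13. Of all genes 9.54% were higher, 4.88% lower and 26.7% at an unadjusted p under 0.05. With a replicate block Ptpn22 passed as higher and Inpp5d and Pag1 as lower, beside 1841 higher and 1136 lower of all 15380 genes. Leaving out 1 WT library also moved some inhibitors past the threshold. In that fit 1 WT library stands alone, and the counts over all genes rose as well. Inpp5d is the phosphatase recruited by Fcgr2b, with 13757 and 14095 scaled tags in WT and 11970 and 12669 in GrnKO (log2 change -0.18, limma adjusted p = 0.0923). Among 8 tested genes of other Fc-binding or Fc receptor-like proteins, Fcrl1 rose and Fcrla fell. Fcrl1 held 643 and 680 scaled tags in WT and 925 and 936 in GrnKO (log2 change 0.49, limma adjusted p = 0.0105), and is best known from B cells.

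**Figure D5:**
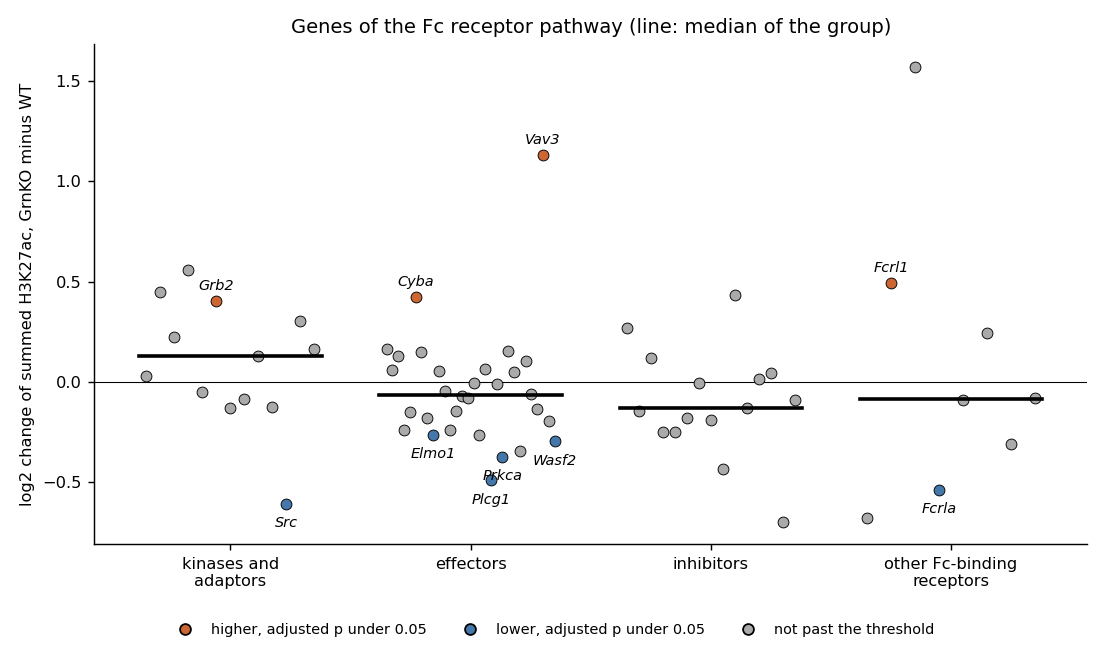
Log2 change of summed H3K27ac in GrnKO minus WT (y axis) of the 66 tested genes that act with Fc receptors, in 4 groups (x axis), with a black line at the median of each group and names at genes past an adjusted p of 0.05. Vav3 has the highest value of the genes that passed (1.13) and no inhibitor is past the threshold in this fit.

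Other genes lie around the receptors. There were 31 genes with a region within 100000 bp of an Fc receptor region. In limma 0 of the 31 were higher and 1 lower, beside 9.54% and 4.88% of all genes. Their median log2 change was -0.11. At an unadjusted limma p under 0.05 there were 2 higher and 8 lower, beside 26.7% of all genes in either direction. EdgeR called 0 and 1, beside 1446 and 763 of all 15380 genes, and DESeq2 called 0 and 2, beside 1392 and 776. The 1 lower in limma was Fcrla, which lies in the same cluster, with 349 and 334 scaled tags in WT and 243 and 227 in GrnKO (log2 change -0.54, limma adjusted p = 0.0354). By the authors' scaling Fcrla did not pass (log2 change -0.35, limma adjusted p = 0.450). B4galt3 (log2 change -0.47, limma adjusted p = 0.0552) and Usp21 (log2 change -0.63, limma adjusted p = 0.0588) came next. Both passed with a replicate block (limma adjusted p = 0.0221 and 0.0273) and not by the authors' scaling (limma adjusted p = 0.558 and 0.353). With 1 library left out the log2 changes ran from -0.60 to -0.33 for B4galt3 and from -0.81 to -0.43 for Usp21. The number of lower genes among the 31 was 4 with the block, beside 1136 of all 15380 genes. By the authors' scaling it was 0, beside 166 of all genes.

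The genes most like each receptor across the 4 libraries were found by the Euclidean distance of centred log2 sums among 7486 genes with a mean of at least 100 scaled tags. They were Ppp1r3d and Trp53cor1 for Fcgr1 (distances of 0.018 and 0.019), Ube2l3 and Ptk2b for Fcgr2b (0.0095 and 0.012), Bad and Art3 for Fcgr3 (0.022 and 0.026), Nsun6 and Mir6368 for Fcgr4 (0.014 and 0.016), and Ndfip1 and Gm1587 for Fcer1g (0.014 and 0.018). With 4 libraries, such closeness is a description. Ptk2b alone of these 10 passed the threshold, with 2255 and 2463 scaled tags in WT and 2845 and 2964 in GrnKO (log2 change 0.30, limma adjusted p = 0.0387).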

How the data were processed

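H3K27ac and input libraries of sorted PU.1-positive nuclei were analysed as 2 WT and 2 GrnKO replicates, each a pool of 2 mice, named by the titles in the labels. The deposited values are a signal, tags per region that the authors put on a common total of 10000000 per library, per the file headers. The submitters' processing notes name Bowtie2, HOMER, DESeq2 and mm10, without roles or versions; handling of duplicate reads is not given in the sources used here. Multiplying by library totals returned whole read ends for 100% of values, at 2 per tag, within a tolerance of 0.0241 to 0.0400 read ends by library. TMM factors from those tags (0.825, 1.04, 1.08 and 1.08 in WT 1, WT 2, GrnKO 1 and GrnKO 2) corrected the values. Regions were filtered with edgeR's filterByExpr (minimum 10), and genotype was fitted to log2(value + 1) with limma 3.58.1 in R 4.3.3 (eBayes with trend; Benjamini-Hochberg at 0.05). Fold changes on that scale understate low regions. Gene sums were fitted in the same way with their own TMM factors.

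EdgeR 4.0.16 and DESeq2 1.42.0 ran on rounded recovered tags. Other alternatives were other scalings, a pseudocount of 5, no filter, a replicate block, subtraction of the input effect, subsets of regions and each library left out. The test was also run on simulated data with known changes, and the outcome is not given here. The 5 promoter windows used come from RefSeq (GRCm38.p6) and lie inside the start-site regions of the table. Named pathway genes are up to 3 per group and direction with the smallest p past the threshold; all members are covered. Members and lists were chosen with earlier results of these data known. A pool is 1 sample, so p-values measure the spread between pools, and counting floors (3 tags) cover counting error only.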

Additional observations from a re-analysis of the deposited data

How the results depend on the processing

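The counts of Fc receptor regions (5 higher, 2 lower) were 8 and 6 with a replicate block. The block also raised the counts over all 80728 regions, from 5488 higher and 2354 lower to 7403 and 3988. The Fc receptor counts were 0 and 0 after subtraction of the input effect and in the inputs alone, as over all regions. The lower count was 0 under the authors' scaling, 1 without a filter and 1 in DESeq2. With 1 library left out both counts changed, as did the counts over all regions. For summed genes (0 and 0), leaving out 1 library gave 0 to 1 higher and 0 to 2 lower, and regions over 1000 bp from the start site gave 1 higher. Pathway genes (4 higher, 6 lower) were 7 and 9 with the replicate block, 0 and 0 after subtraction of the input effect, in the inputs alone and among regions within 1000 bp of the start site, and 0 lower under the authors' scaling; with 1 library left out both counts ran from 1 to 13. The GrnKO minus WT difference in the activating to inhibitory log2 ratio (-0.52) was -0.48 among regions within 1000 bp of the start site and -0.54 to -0.49 with 1 library left out. After subtraction of the sparse inputs the sign turned for 19 of 64 regions and genes followed, of which 7 had passed the test: the Fcgr1 start site (1.50), the Fcgr4 region at 16.3 kb (0.44), the Fcer1g region at 2.25 kb (-0.025), Vav3 (-2.33), Plcg1 (1.64), Elmo1 (0.12) and Fcrla (0.19). Among regions within 1000 bp of the start site it turned for 5 of 16 genes, Src (0.065) and Prkca (0.12), which had passed, and Fcgr4 (0.31), Fcer1g (-0.062) and B4galt3 (0.059), which had not. Under the authors' scaling it turned for 11 of 64, none of which had passed. The cause was not tested, and that interaction called 0 of all 80728 regions. Of 887 alternative values of single regions and genes, 696 kept their side of the threshold and their direction. The replicate numbers name different mice and do not pair the samples (same-number correlation 0.034 over regions).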
